A study of Mus musculus with 12 samples.

Results

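The enzymes examined here break down tryptophan along the kynurenine route or turn it into serotonin and then oxidise serotonin. They were 9 genes, Ido1, Tph1, Kmo, Kynu, Afmid, Haao, Ddc, Maoa and Maob, of 18193 genes that the array annotation names, and every probe set annotated to them was taken, 15 of 45037. The pathway was chosen by the measured genotype differences of Ido1 and Tph1 on these arrays, and of Ido1's change of difference with time, and its other enzymes were added by annotation. Differences between the genotypes are therefore given for these 9 genes as a description, with no p-value, and so are the time differences of Ido1, which make up its change of difference. Of the 15 probe sets, 8 from 7 genes exceeded their array's median signal on 3 or more of the 12 arrays and could be tested over time. All probe sets of Kynu and Ddc lay below the array median on every array and were not tested.

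Mammary glands came from ovariectomized female BALB/c mice, 10 weeks old, that were wildtype or progesterone receptor null (null, from here on). All mice received subcutaneous 17β-estradiol (100 ng) for 24 h, followed by 17β-estradiol together with progesterone (2.5 ug) for either 8 h or 24 h. The 4 groups, wildtype and null at 8 h and at 24 h, had 3 arrays each, and the RNA on an array was pooled from 3 mice. Every group received progesterone, so a response to the hormone and a standing genotype difference cannot be told apart, and the labels do not describe the null allele. All 12 luminal epithelial markers on a fixed list were above the filter, so mammary epithelium was represented in the whole-gland RNA.

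Tryptophan is an essential amino acid with several fates. IDO1 opens its ring and starts the kynurenine route, which runs through AFMID, KMO, KYNU and HAAO toward NAD. TPH1 hydroxylates it instead, in the step that limits serotonin synthesis outside the brain, DDC then forms serotonin, and the monoamine oxidases MAOA and MAOB degrade it. Interferon gamma is a known inducer of Ido1, and serotonin made by mammary epithelium is known as a local regulator of lactation and involution.

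Ido1 and Tph1, which compete for the same substrate at the entry of the routes, were both higher in null glands at both times, and in null glands Ido1 was higher and Tph1 lower at 24 h than at 8 h. Ido1 had log2 signals of 4.55, 5.18 and 4.90 in the wildtype pools at 8 h, and of 8.07, 7.80 and 7.71 in the null pools. At 24 h the wildtype pools gave 4.76, 4.24 and 4.53 and the null pools 9.56, 9.27 and 9.54. Wildtype and null pools did not overlap at either time, and no wildtype pool rose above the array median, which lay between 5.84 and 5.91 on all arrays.

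The Ido1 means at 8 h were 4.87 ± 0.32 (SD, n = 3) in wildtype and 7.86 ± 0.19 in null glands, 7.92-fold apart (95% interval 6.05 to 10.4). At 24 h they were 4.51 ± 0.26 and 9.46 ± 0.16, 30.9-fold apart (23.6 to 40.4). The difference between genotypes thus widened by 3.90-fold (2.66 to 5.70). In null glands Ido1 was 3.03-fold higher at 24 h than at 8 h (SE 0.18 on the log2 scale, interval 2.31 to 3.96), with all 3 null pools at 24 h above the 3 at 8 h. In wildtype glands it lay 1.29-fold lower at 24 h (interval from 0.984 to 1.69), and the pools of the 2 times overlapped. These time differences are the parts of the change by which Ido1 was chosen and carry no test.

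Tph1 gave 4.87, 4.49 and 5.86 in the wildtype pools at 8 h, and 9.20, 8.73 and 8.78 in the null pools. At 24 h the wildtype pools gave 4.32, 5.22 and 5.11 and the null pools 8.01, 6.86 and 7.10. The lowest null pool at 24 h still lay above the highest wildtype pool of either time. Wildtype pool 3 at 8 h was the highest wildtype pool and the 1 wildtype pool above its array's median.

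The Tph1 means at 8 h were 5.08 ± 0.71 in wildtype and 8.90 ± 0.26 in null glands, 14.2-fold apart (8.02 to 25.2). At 24 h they were 4.88 ± 0.49 and 7.33 ± 0.61, 5.44-fold apart (3.07 to 9.64). The gap thus narrowed by 2.61-fold (1.16 to 5.87), which was not called. Between 8 h and 24 h Tph1 fell in null glands, 2.99-fold (SE 0.38 on the log2 scale, interval 1.69 to 5.30, limma adjusted p = 0.04), whereas in wildtype it lay 1.14-fold lower at 24 h (interval from 0.645 to 2.03, adjusted p = 0.81). The null arrays also entered the genotype differences by which Tph1 was chosen, so the p-value of its fall is not free of that choice. The fall was near the threshold. It lost its call without null 8 h pool 1 (0.0915), pool 2 (0.0922) or pool 3 (0.109), null 24 h pool 2 (0.152) or pool 3 (0.103), and wildtype 8 h pool 1 (0.0593) or wildtype 24 h pool 3 (0.0502), the last 2 of which enter only through the shared spread. It was also lost with a robust prior (0.0541), quantile normalization (0.0543) and a fit of the null arrays alone (0.052).

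**Figure D1:**
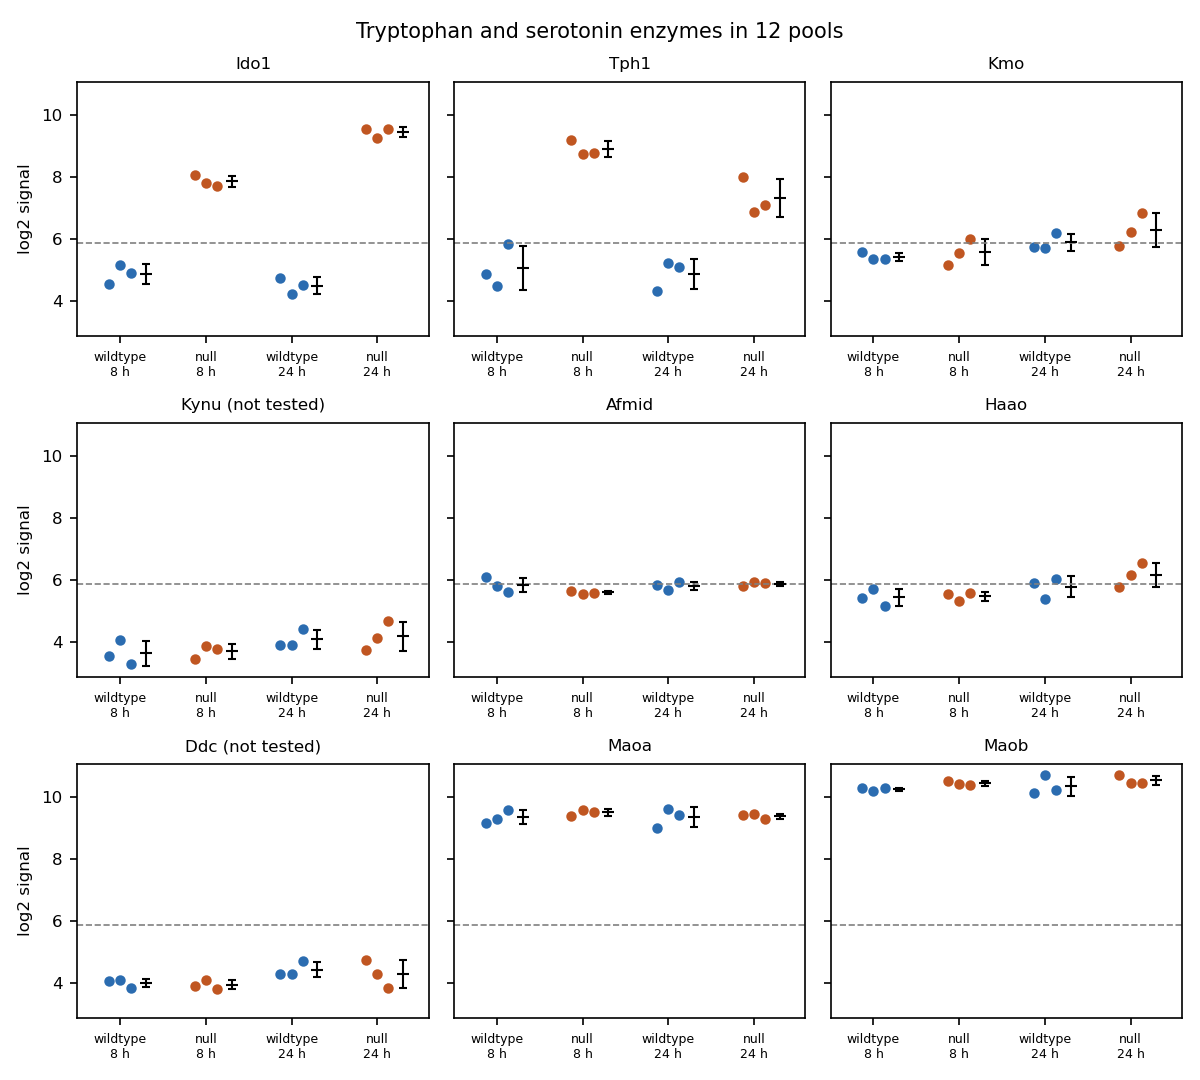
Log2 signal (y axis, same scale in every panel) of the probe set with the highest mean for each of the 9 enzymes in the 4 groups (x axis). Points are pools of 3 mice, bars show the mean and SD of 3 pools, and the dashed line is the mean array median of 5.87; heights differ between probes and are not compared across panels. The null pools of Ido1 and Tph1 lie above all wildtype pools at both times, while the genotypes overlap at each time for Maoa and Afmid.

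Because all but 1 of the wildtype values of these genes lay below the array median, the size of the folds depends on how low signals are read. With values below the mean array median of 5.87 set to it, the wildtype minus null difference of Ido1 became -1.99 at 8 h and -3.59 at 24 h on the log2 scale, from -2.99 and -4.95. That of Tph1 became -3.04 and -1.46, from -3.83 and -2.44. Null glands stayed higher in each case.

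The start sites of Tph1 are shown because, of Ido1 and Tph1, the RefSeq promoter table lists Tph1; Ido1, Kynu and Maob had no entry, and the other 6 members matched. The table (build GRCm38.p6) gives 2 start sites for Tph1 on the minus strand of chromosome 7. The 250 bases before each start are printed 5′ to 3′, with capitals for any match, on either strand, to the hormone response half-site TGTTCT, the palindrome of GNACA and TGTNC spaced by 3 bases, the CCAAT box or the TATA box TATAAA.
Tph1 upstream start, chr7:46672538-46672787: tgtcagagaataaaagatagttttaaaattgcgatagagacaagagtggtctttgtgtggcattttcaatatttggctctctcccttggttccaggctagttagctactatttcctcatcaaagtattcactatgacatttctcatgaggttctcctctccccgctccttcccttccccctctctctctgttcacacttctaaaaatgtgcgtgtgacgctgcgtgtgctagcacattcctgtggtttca
Tph1 downstream start, chr7:46667378-46667627: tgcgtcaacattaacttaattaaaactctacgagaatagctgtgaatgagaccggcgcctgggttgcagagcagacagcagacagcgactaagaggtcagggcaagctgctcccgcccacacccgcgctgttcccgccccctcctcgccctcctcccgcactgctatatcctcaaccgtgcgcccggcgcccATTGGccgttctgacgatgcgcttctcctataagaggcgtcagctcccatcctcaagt
The downstream window held 1 CCAAT box, read as its reverse complement and starting 58 bases before the start site, and the upstream window held none of the 4 motifs. Over 32851 promoter windows of the same length, 33.8% held a CCAAT box, 16.1% the half-site, 0.387% the palindrome and 12.4% the TATA box. Among the other members with an entry, the half-site was found once, in Haao, 164 bases before its start.

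Counted over the 7 tested enzymes, 2 were called higher in null glands at 8 h (Ido1 and Tph1; 1.42% of 12004 genes were called higher in null glands and 3.01% in either direction). The same 2 were called at 24 h (0.25% of genes higher in null glands, 1.3% in either direction). A change of the genotype difference between the times was called for Ido1 alone, toward a more negative wildtype minus null difference (0.0333% of genes in that direction, 0.133% in either). These shares stand beside counts that the choice of genes fixed, and nothing is read from them. A called gene had a limma p-value, adjusted over all 23709 tested probe sets, below 0.05.

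Over time in null glands, 2 of 7 enzymes were called, Ido1 upward (0.733% of genes rose) and Tph1 downward (3.83% fell; 4.57% in either direction). The choice of Ido1 by its change of difference in large part fixed its call, and nothing is read from it; the time difference of Tph1 did not choose it but comes from arrays that did. In wildtype glands limma called 0 of 7, with 5.28% of all genes called; none of the 7 representing probe sets had an unadjusted p below 0.05 there. The median difference of the 7 was 0.28 in null and 0.00 in wildtype glands, against -0.025 and -0.009 over all genes tested.

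**Figure D2:**
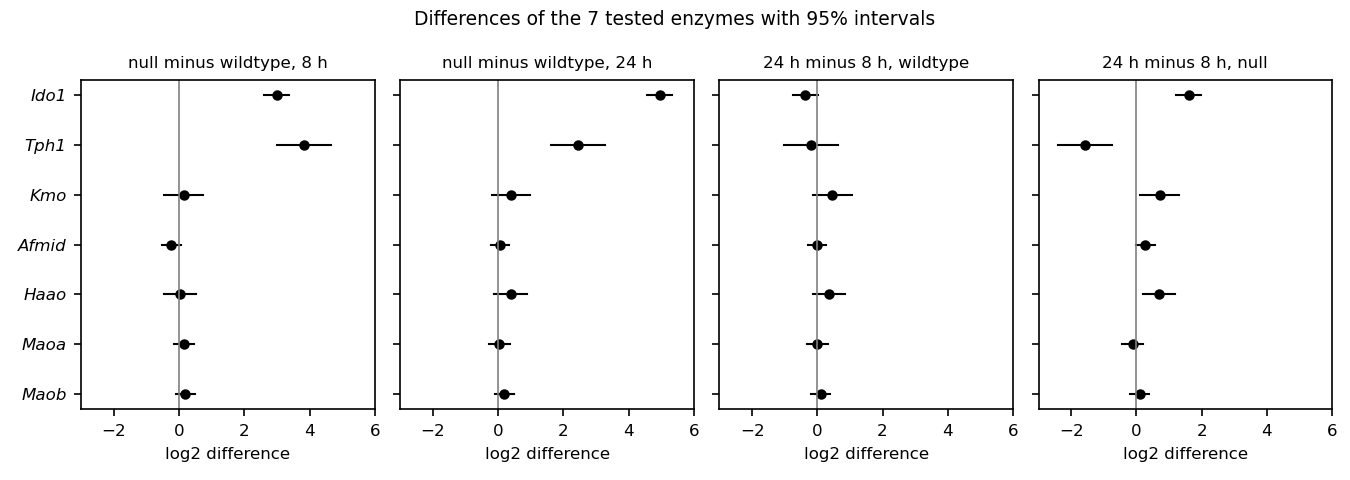
Log2 differences (x axis) of the 7 tested enzymes with their 95% intervals from the limma fit, for null minus wildtype at 8 h and 24 h and for 24 h minus 8 h in each genotype; 0 means no difference. Ido1 and Tph1 stand to the right of 0 in both genotype panels, 7.92-fold and 14.2-fold from it at 8 h, and on opposite sides of 0 for time in null glands; the intervals of the other 5 include 0 in both genotype panels.

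Among the 3 later kynurenine enzymes that were tested, none differed between the genotypes by more than 1.31-fold in these arrays. Each of them lay above the array median on only 4 of 12 arrays, so these folds were read from low signals. Kmo, which hydroxylates kynurenine, gave 5.59, 5.36 and 5.36 in wildtype and 5.16, 5.57 and 6.01 in null pools at 8 h. At 24 h it gave 5.76, 5.73 and 6.20 in wildtype and 5.77, 6.24 and 6.85 in null pools. The genotypes overlapped at both times, and the fold of null over wildtype was 1.10 at 8 h (interval 0.734 to 1.66) and 1.31 at 24 h (0.871 to 1.97).

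Haao, the dioxygenase that opens the ring of hydroxyanthranilate, overlapped between genotypes at both times. Its means were 5.45 ± 0.28 in wildtype and 5.48 ± 0.14 in null glands at 8 h, and 5.79 ± 0.34 and 6.17 ± 0.38 at 24 h. The fold of null over wildtype was 1.03 at 8 h (0.731 to 1.44) and 1.30 at 24 h (0.923 to 1.82). Null pool 3 at 24 h was the highest for both enzymes, at 6.55 for Haao and 6.85 for Kmo.

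From 8 h to 24 h in null glands the fold was 1.63 for Kmo (adjusted p = 0.16) and 1.61 for Haao (adjusted p = 0.11), both short of a call. In wildtype they lay 1.38-fold (adjusted p = 0.35) and 1.27-fold (adjusted p = 0.41) higher at 24 h. With arrays weighted by their quality, Haao (adjusted p = 0.00976) and Afmid (0.0399) passed in null glands. Haao lay above the array median in 0 pools at 8 h and in 2 pools of each genotype at 24 h. It thus entered the test only through the time at which it was higher.

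Afmid, the formamidase that releases kynurenine, was seen by 4 probe sets, of which 1 was tested. At 8 h that one gave 5.84 ± 0.24 in wildtype and 5.60 ± 0.04 in null glands, a fold of 1.18 in favour of wildtype (0.969 to 1.43). At 24 h it gave 5.82 ± 0.13 and 5.88 ± 0.07, a fold of 1.04 in favour of null glands (0.858 to 1.27), and the genotypes overlapped at both times. The other 3 probe sets had means over the 12 arrays of 5.06, 3.90 and 2.99, below the array median throughout.

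Kynu, the kynureninase, had its brighter probe set at means of 3.64 ± 0.40 in wildtype and 3.71 ± 0.23 in null glands at 8 h, and of 4.09 ± 0.29 and 4.20 ± 0.47 at 24 h. Its other probe set lay between 3.48 and 3.66 in the group means. The genotypes overlapped for the brighter one at each time, and at these levels a change in Kynu could not be assessed.

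On the serotonin side, none of the enzymes after Tph1 was called over time. Ddc, which makes serotonin from the product of Tph1, had a probe set at group means between 3.95 and 4.44 and another between 3.96 and 4.24, all below the array median. Its brighter probe set reached 4.73 in wildtype pool 3 and 4.74 in null pool 1 at 24 h, and both genotypes overlapped at each time. The other probe set gave 4.17, 4.23 and 4.33 in wildtype and 3.91, 4.15 and 4.04 in null pools at 8 h, without overlap.

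Maoa, which oxidises serotonin, gave 9.17, 9.28 and 9.59 in wildtype and 9.39, 9.58 and 9.52 in null pools at 8 h. At 24 h it gave 9.01, 9.61 and 9.43 in wildtype and 9.41, 9.44 and 9.29 in null pools. The genotypes overlapped at both times, and the intervals of the difference ran from 0.887 to 1.38 at 8 h and from 0.818 to 1.28 at 24 h, as folds of null over wildtype. The dimmer Maoa probe set pointed the other way, 1.03-fold higher in wildtype at 8 h and 1.09-fold at 24 h. In null glands it lay 1.26-fold lower at 24 h than at 8 h (adjusted p = 0.15).

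Maob, whose enzyme prefers other amines but also acts on serotonin, gave 10.27, 10.18 and 10.28 in wildtype and 10.52, 10.41 and 10.38 in null pools at 8 h. The 3 null pools lay above the 3 wildtype pools, by 1.14-fold (0.940 to 1.39). At 24 h the values were 10.12, 10.69 and 10.22 in wildtype and 10.70, 10.45 and 10.46 in null pools, again 1.14-fold apart (0.938 to 1.39) but with wildtype pool 2 among the null pools. Over time Maob lay 1.07-fold higher at 24 h in each genotype (adjusted p = 0.70 in wildtype and 0.71 in null).

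The genes whose signals were most like those of Ido1 and Tph1 over the 12 arrays were taken by Pearson correlation among 1849 genes with a range of at least 1 on the log2 scale. For Ido1 these were Slc12a2, a sodium, potassium and chloride cotransporter (r = 0.953), Capsl (r = 0.937), Tspan1 (r = 0.917), the mucosal defence gene Dmbt1 (r = 0.916) and 2210407C18Rik (r = 0.903). Slc12a2 went from 11.51 ± 0.08 in wildtype to 12.74 ± 0.11 in null glands at 8 h and from 11.59 ± 0.15 to 12.81 ± 0.09 at 24 h. Dmbt1 went from 4.38 ± 0.77 to 5.95 ± 0.49 at 8 h and from 4.69 ± 0.39 to 8.83 ± 0.42 at 24 h, and its gap too was wider at 24 h.

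For Tph1 they were the diamine oxidase gene Aoc1 (r = 0.952), 2210407C18Rik again (r = 0.940), Cfap300 (r = 0.934), Mtmr7 (r = 0.929) and the cationic amino acid transporter gene Slc7a2 (r = 0.929). Aoc1 had means of 5.51 ± 0.13 and 8.89 ± 0.40 at 8 h and of 5.48 ± 0.04 and 7.70 ± 0.95 at 24 h, in wildtype and null glands. Cfap300 lies on chromosome 9 with 2 protein-coding genes between it and Pgr, the gene of the receptor, in the RefSeq table, whereas Ido1 is on chromosome 8 and Tph1 on chromosome 7. These correlations describe 12 arrays in 4 groups and rest mostly on the gap between the genotypes. Ido1 and Tph1 correlated with each other at r = 0.78.

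**Figure D3:**
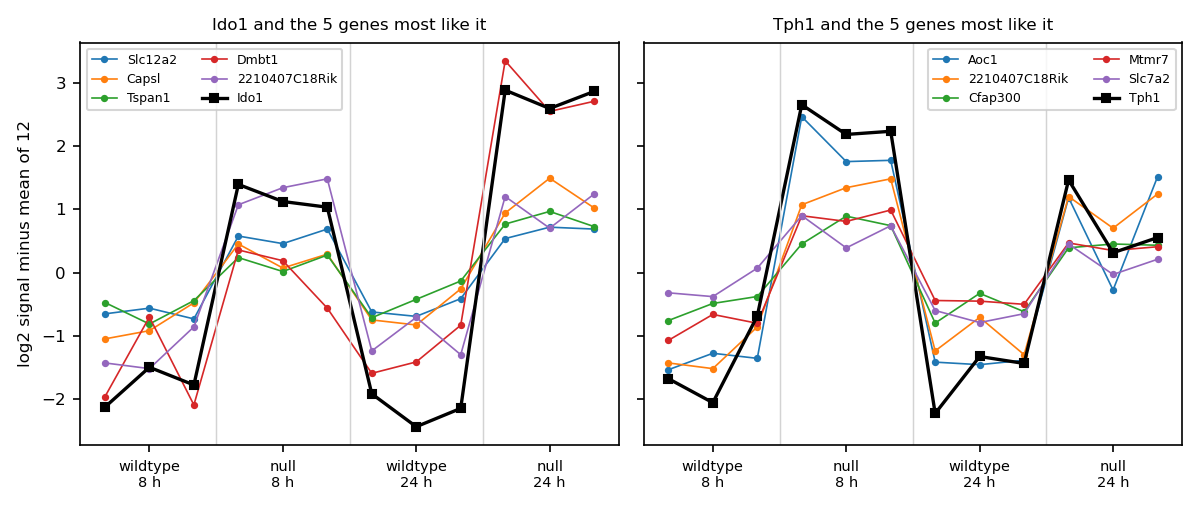
Log2 signal minus each gene's own mean over 12 arrays (y axis) in the 12 pools, ordered by group (x axis), for Ido1 and Tph1 (black squares) and the 5 genes most correlated with each. Null pools lie above the wildtype pools of the same time in every gene shown; Ido1 and Dmbt1 are highest in null pools at 24 h, and Tph1 is highest in null pools at 8 h.

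Genes that serve these routes were then taken from 6 lists of 75 genes, of which 44 could be tested. At 8 h limma called 1 of 44 between the genotypes and at 24 h 0 of 44, where 3.01% and 1.3% of all genes were called. With array weights 7 and 2 of the 44 were called. The share of all genes called with those weights is not given here, so nothing is read from these counts. An unadjusted p below 0.05 was found for 6 and 8 of the 44. Over all genes, 16.3% and 13.8% had one, so the 6 and 8 were near the background. The median wildtype minus null difference of the 44 was 0.02 at 8 h and 0.01 at 24 h, against 0.010 and 0.011 over all genes.

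The gene called at 8 h was Pcbd1, a dehydratase that regenerates tetrahydrobiopterin, the cofactor TPH1 needs. It gave 6.93, 7.19 and 7.05 in wildtype and 7.86, 8.22 and 7.72 in null pools, 1.84-fold higher in null glands (SE 0.13 on the log2 scale, interval 1.50 to 2.25, adjusted p = 0.0044, from 0.00094 to 0.0261 over 23 other settings). At 24 h it gave 7.47, 7.61 and 7.63 in wildtype and 7.90, 8.16 and 7.83 in null pools, 1.32-fold higher in null glands with no overlap (adjusted p = 0.22). Its genotype difference at 24 h was not shown to differ from that at 8 h (adjusted p = 0.76).

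Pcbd1 rose 1.43-fold over time in wildtype glands (adjusted p = 0.048). That call was lost in 16 of 23 other settings, among them without any single wildtype pool (adjusted p up to 0.18, the value without wildtype 8 h pool 1; 0.0776 and 0.101 without 8 h pools 2 and 3; 0.0681, 0.113 and 0.117 without 24 h pools 1, 2 and 3) and without null 8 h pool 1 (0.0551), null 24 h pool 1 (0.0555) or null 24 h pool 3 (0.0511). In null glands Pcbd1 lay 1.02-fold higher at 24 h (adjusted p = 0.91). Of the 7 tested cofactor enzymes, Pcbd1 was the 1 called in any of these comparisons.

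The uptake of tryptophan depends in part on the heterodimer of SLC7A5 and SLC3A2. Slc3a2 gave 10.45, 10.34 and 10.58 in wildtype and 10.41, 10.47 and 10.43 in null pools at 8 h, and 10.08, 10.20 and 10.10 in wildtype and 9.78, 9.73 and 9.85 in null pools at 24 h. It fell over time in null glands, 1.57-fold (SE 0.07 on the log2 scale, adjusted p = 0.0014), and in wildtype glands, 1.26-fold (adjusted p = 0.028). The wildtype call was lost without wildtype 8 h pool 1 (0.101) or 3 (0.0756), without wildtype 24 h pool 1 (0.0742) or 3 (0.0772), and in a fit of the wildtype arrays alone (0.101).

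Slc7a5 gave 7.47, 7.54 and 7.50 in null pools at 8 h and 6.69, 6.76 and 7.11 at 24 h, with no overlap. It fell 1.57-fold in null glands (SE 0.13 on the log2 scale, adjusted p = 0.024), and lay 1.05-fold lower at 24 h in wildtype (adjusted p = 0.78). The fall in null glands was lost without null 8 h pool 2 (0.0806) or 3 (0.0861), without null 24 h pool 1 (0.0556) or 2 (0.0958), and in a fit of the null arrays alone (0.0552). These were the 2 called of 44 over time in null glands, where 4.57% of all genes were called. The change of the genotype difference between the times did not pass for Slc7a5 (adjusted p = 0.54) or Slc3a2 (adjusted p = 0.53).

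Kynurenine is a ligand of the aryl hydrocarbon receptor. Of 5 tested genes of that receptor and its targets, the main limma fit called 0 between genotypes at either time, with 1 at an unadjusted p below 0.05 at 8 h and 0 at 24 h. With array weights Ahr, the gene of the receptor, passed at 8 h (adjusted p = 0.0473, higher in null). Cyp1b1, a cytochrome P450 gene and target of the receptor, rose over time in wildtype glands (2.36-fold, SE 0.28 on the log2 scale, adjusted p = 0.031) and lay 2.06-fold higher at 24 h in null glands (adjusted p = 0.061). Arnt, the partner of the receptor, fell in wildtype glands (1.41-fold, SE 0.09 on the log2 scale, adjusted p = 0.013) and lay 1.22-fold lower in null glands (adjusted p = 0.094). Without wildtype 8 h pool 1 both calls were lost (0.131 for Cyp1b1 and 0.0599 for Arnt), and that of Cyp1b1 also without wildtype 8 h pool 2 (0.0862) or wildtype 24 h pools 2 (0.0897) or 3 (0.0928). In null glands Cyp1b1 passed with a replicate block (0.00794), with array weights (0.00958) and without wildtype 24 h pool 1 (0.0464). Arnt passed there with array weights (0.0044) and without null 24 h pool 3 (0.0455). The dimmer tested probe set of each gene moved the same way in wildtype glands but was not called. It lay 1.62-fold higher at 24 h for Cyp1b1 (limma adjusted p = 0.15) and 1.21-fold lower for Arnt (0.18). The change of the genotype difference between the times was not called for Cyp1b1 (limma unadjusted p = 0.63) or Arnt (0.12). Together with Slc3a2 and Pcbd1, Cyp1b1 and Arnt made up the 4 called of 44 over time in wildtype, where 5.28% of all genes were called.

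**Figure D4:**
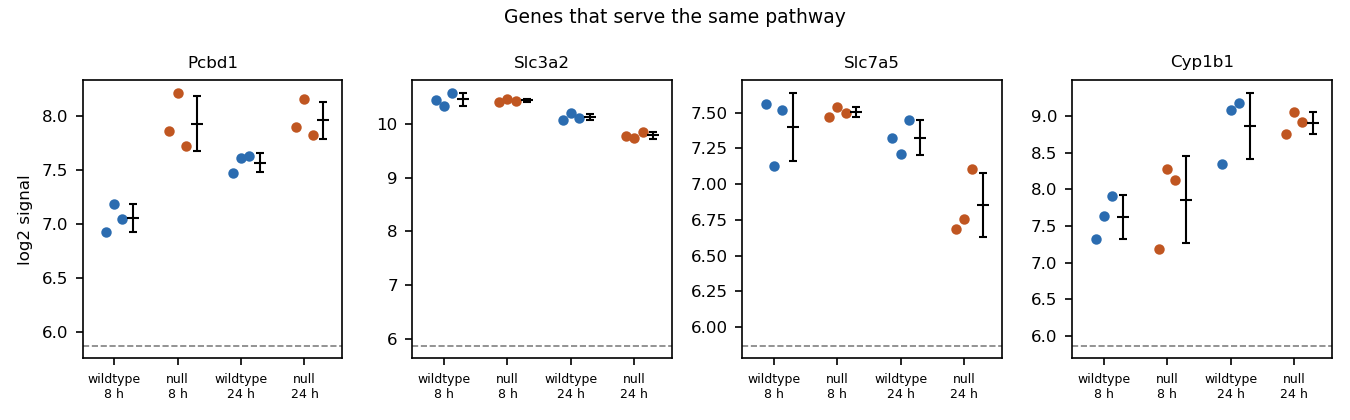
Log2 signal (y axis, scaled per panel) in the 4 groups (x axis) of the 4 genes Pcbd1, Slc3a2, Slc7a5 and Cyp1b1. Points are pools, bars the mean and SD of 3 pools, and the dashed line the mean array median of 5.87; null pools of Pcbd1 lie above the wildtype pools at both times, and null pools of Slc3a2 and Slc7a5 are lowest at 24 h.

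The alternative entry enzymes of both routes were near the floor of the array. Ido2, a paralog of Ido1, had group means from 3.51 to 3.76. Tph2, the neuronal tryptophan hydroxylase, had group means from 3.42 to 3.53. The brightest of 3 probe sets of Tdo2, the hepatic dioxygenase, had group means from 3.85 to 4.13, and none of these genes was tested. Slc6a4, the serotonin transporter, was tested, with means of 5.88 ± 0.39 in wildtype and 6.30 ± 0.18 in null glands at 8 h and of 5.88 ± 0.31 and 5.86 ± 0.26 at 24 h. It was not called in the main limma fit, and with array weights it passed at 8 h (adjusted p = 0.0409, higher in null).

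In the main limma fit, the list of interferon gamma, its receptors and its response genes gave no call in any comparison. Of 14 tested genes on that list limma called 0 between the genotypes at 8 h or at 24 h, with 1 at an unadjusted p below 0.05 at each time. Their median wildtype minus null difference was 0.20 at 8 h and 0.10 at 24 h, against 0.010 and 0.011 over all genes, and any part of interferon gamma in the Ido1 difference was not tested. Ifng itself was not tested, with group means from 3.06 to 3.39. Over time in null glands 0 of 14 were called and 2 had an unadjusted p below 0.05. Some of the 14 passed in other settings. With array weights these were Ifngr1 (adjusted p = 0.0426, higher in null) and Ifngr2 (0.00973, higher in wildtype) at 8 h, and Ifngr2 at 24 h (0.0285). Over time in null glands they were Irf1 (0.0391), Ciita (0.0358) and Tap1 (0.0393). Ciita (0.0357) and Tap1 (0.0477) also passed without null 24 h pool 1, and Ifngr2 at 24 h without wildtype 24 h pool 2 (0.0407).

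Cell type markers were read beside these results, as means of log2 signal over each list's tested genes. In bulk tissue, fewer cells of a type and less RNA per cell cannot be told apart. Mast cells can express Tph1; 9 of 12 mast cell markers were tested, and their mean ran from 7.22 to 7.97 in wildtype and from 7.67 to 8.17 in null pools at 8 h, and from 7.18 to 7.88 and from 7.36 to 7.58 at 24 h. The null groups thus overlapped the wildtype groups at both times, with null glands 0.45 higher at 8 h and 0.05 lower at 24 h on the log2 scale. At 8 h 0 of the 9 genes lay higher in wildtype, and at 24 h 6 did. At 8 h 3 of the 9 had an unadjusted p below 0.05 (16.3% of all genes did) and 0 were called. The median wildtype minus null difference of the 9 was -0.35 at 8 h and 0.07 at 24 h. That of Tph1 was -3.83 and -2.44, and any part of mast cells in it was not tested. Between 8 h and 24 h in null glands the mast cell mean fell by 0.44 without overlap and Kit was called lower, as Tph1 fell, and its part in that fall was not tested. Fcer1a, Ms4a2 and Hpgds were below the filter.

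The luminal epithelial mean was higher in null glands at 8 h (8.99 to 9.14, against 8.73 to 8.91 in wildtype) and lower at 24 h (8.50 to 8.74, against 8.82 to 9.27). At 8 h the list went both ways: 6 of the 12 lay higher in wildtype, the median wildtype minus null difference was -0.03, and Krt8, Krt18, Cldn4 and Prom1 were called higher in null glands. At 24 h the luminal list also went both ways: 8 of the 12 lay higher in wildtype, and Cldn3, Cdh1, Cldn7 and Esrp1 were called lower in null glands. The others lay higher in null glands, among them Prom1 (means of 7.90 in wildtype and 8.62 in null glands). The basal epithelial mean was lower in null glands at 24 h too (7.79 to 8.04, against 8.43 to 9.26 in wildtype), with Trp63 called. Over time in null glands the luminal epithelial mean fell by 0.40, and the mean of 8 basal epithelial markers fell by 0.86, both without overlap. Of these 8 basal genes, 0 rose in null glands and 7 lay higher at 24 h in wildtype. Oxtr was called lower in both genotypes (from 11.32 to 9.66 in null and from 11.08 to 9.67 in wildtype glands). In null glands the endothelial mean fell by 0.25 without overlap, with Pecam1 and Kdr called lower. Tph1 fell and Ido1 was higher in the same arrays, and the part of these shifts in the genotype or time differences of either was not tested. Dendritic cell markers, of which 8 of 10 were tested and Xcr1 and Clec9a were below the filter, overlapped between genotypes at 8 h (6.48 to 6.75 in wildtype and 6.21 to 6.86 in null pools) and at 24 h (6.66 to 7.14 and 6.30 to 7.38). Macrophage markers, 10 of 10 tested, also overlapped at both times, with means 0.20 lower in null glands at 8 h and 0.03 lower at 24 h. The plasma cell mean was higher in null glands at 8 h by 0.75 without overlap, and Igha and Jchain were called. At 24 h it was 0.21 higher with overlap and Igha was called. That list too went both ways: 3 of its 8 tested genes lay higher in wildtype at 8 h and 4 of 8 at 24 h. Its median wildtype minus null difference was -0.17 at 8 h and 0.03 at 24 h. Any part of the plasma cell shift in the Ido1 and Tph1 differences was not tested. Neuroendocrine markers other than Syp (Chga, Chgb, Pcsk1, Scg2 and Scg5) were below the filter. The adipocyte mean was 0.55 higher in null glands at 8 h without overlap and 0.22 higher at 24 h with overlap. The brown fat genes Ucp1 (means of 10.69 in wildtype and 12.65 in null glands at 8 h) and Cidea (10.66 and 12.32) were the 2 of 7 called at 8 h, and the list's median wildtype minus null difference was -0.12. The null minus wildtype difference of the skeletal muscle mean was -2.01 and -1.50, with overlap at both times.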

How the data were processed

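Total RNA of pooled mammary glands was hybridised to 12 Affymetrix arrays as biotin-labelled cRNA, per the labels' protocols. The deposited values were 1 table of 45101 probe sets on a log2 scale, as judged from their range, since the log base is not stated; array medians nearly coincide (5.84 to 5.91), so the deposited log2 values look normalized across arrays by the authors. MAS5 is named, without a role, in the submitters' processing notes; how probes were summarized is not given in the sources used here. Scanner files were not used here. Precision is limited by the 12 arrays.

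Gene symbols came from the platform annotation, using those with 1 symbol (34945 of 45037 that are not controls). The 23709 probe sets (12004 genes) that exceeded their array's median on 3 or more of 12 arrays entered 1 limma 3.58.1 model in R 4.3.3 (lmFit, then eBayes, trended prior). It had a mean for each of the 4 groups, left 8 residual degrees of freedom and used no replicate block. P-values were adjusted over all tested probe sets by Benjamini-Hochberg, and 0.05 was the threshold. For a gene with several probe sets, that of the highest mean stood for it. Pools are labelled as biological replicates, so p-values measure the spread between pools. Same-numbered null pools deviated together (r from 0.26 to 0.52 in 3 of 3 pairs), the pairing coming from the data and not from the labels; other group pairs did not in every pair.

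The enzymes and the gene lists were chosen with earlier results of these data known. Named were all 9 enzymes, every called gene of the pathway lists (at most 4 per list), Ido2, Tdo2, Tph2 and Slc6a4, and the 5 genes most correlated with Ido1 and with Tph1. On simulated data for time in null glands, with 23709 probe sets and independent values, 92% of 2-fold and 100% of 4-fold changes were recovered. Alternatives covered the filter, the prior, a floor, normalization, the arrays fitted, array weights, a replicate block, the probe set per gene and leaving out each array. Promoter sequences came from RefSeq (GRCm38.p6). Figures were drawn with matplotlib 3.10.9.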

Additional observations from a re-analysis of the deposited data

Results flagged for a closer look

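The difference of Ido1 between the genotypes was not the same at 8 h and at 24 h. Wildtype minus null was -2.99 at 8 h and -4.95 at 24 h on the log2 scale, a change of -1.96 (SE 0.25) past the threshold over all probe sets. Since Ido1 was chosen with this change in view, it is a description and supports nothing. In 22 other settings it ran from -2.13 to -1.60. No group had enough pools to test for a pool that stands apart.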

How the results depend on the processing

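The number of the 7 enzymes called kept its value in every other setting for genotype at 8 h (2), for the change of the genotype difference (1) and for time in wildtype (0). The choice of Ido1 and Tph1 fixed the first 2 of these, which therefore say nothing of stability. For genotype at 24 h it became 1 in a fit of the 2 groups compared. For time in null glands it became 1 with a robust prior, 1 after quantile normalization, 1 in a fit of the 2 groups and 4 with array weights, and 1 to 2 when 1 pool was left out, through Tph1. Of the 44 pathway genes, the 1 called at 8 h became 2 in a fit of the 2 groups, 7 with array weights and 2 with a replicate block, and 1 to 2 without 1 pool. The 0 at 24 h became 2 with array weights and 0 to 1 without 1 pool. The 4 over time in wildtype became 2 in a fit of the 2 groups, 7 with the probe set of the largest SD, and 0 to 4 without 1 pool, 0 being the count without wildtype 8 h pool 1. The 2 over time in null glands became 1 in a fit of the 2 groups, 10 with array weights, and 1 to 3 without 1 pool. With the replicate block the counts of enzymes were 2, 2, 1, 0 and 2, and no other call of an enzyme changed. Why array weights raised the counts was not tested, and the share of all genes called with those weights is not given here.

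Uncalled time differences in wildtype glands changed sign. That of Maoa, at 0.002, became -0.026 after median centring and -0.261 with its other probe set, and ran from -0.129 to 0.174 without 1 pool. Without 1 pool, Tph1 ran from -0.485 to 0.200, Afmid from -0.132 to 0.106 and Maob from -0.072 to 0.210. Of 783 differences of single enzymes recomputed, 753 kept their direction and side of the threshold or moved by less than the SD between pools. Genotype differences were compared by size alone. The prior, a fit of the 2 groups and leaving out an array of another group cannot move that size, so these were kept by construction. The count also holds the genotype differences that chose Ido1 and Tph1. The 753 therefore overstates stability. Signals below the array median limit what can be said of Kynu, Ddc and the wildtype levels of Ido1 and Tph1. They also limit Kmo, Haao and Afmid, each above the array median on 4 of 12 arrays.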

Other observations

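The genes in this part were singled out after their values were seen. Wars, the cytoplasmic tryptophanyl-tRNA synthetase that charges tRNA with tryptophan, lay lower in null glands by all 4 of its probe sets at both times. Its brightest probe set gave 9.11, 9.12 and 8.95 in wildtype and 8.88, 8.62 and 8.64 in null pools at 8 h, 1.28-fold apart without overlap, which missed the threshold (limma adjusted p = 0.055). It passed with a replicate block (0.0477), with array weights (0.000982) and without null 8 h pool 1 (0.024). At 24 h it was 1.16-fold apart (adjusted p = 0.31).

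Qprt, which makes the NAD precursor at the end of the kynurenine route, had probe sets that disagreed. The brighter one gave 6.26 ± 0.05 in wildtype and 6.38 ± 0.16 in null glands at 24 h. The dimmer one, above the array median on 2 of 12 arrays and so not tested, gave 5.04 ± 0.11 and 5.91 ± 0.18, and 5.27 ± 0.13 and 5.60 ± 0.08 at 8 h, without overlap at either time.

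Slc18a2, the vesicular monoamine transporter that loads serotonin in mast cells and neurons, lay below the array median throughout and was not tested. It gave 3.81, 4.20 and 5.15 in wildtype and 5.22, 5.50 and 5.66 in null pools at 8 h, without overlap, and 4.70 ± 0.56 and 4.44 ± 0.28 at 24 h. Wildtype pool 3 at 8 h was the highest wildtype pool there for Slc18a2, for Tph1 (5.86) and for the mast cell marker mean (7.97).

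Among the null pools at 24 h, Kmo (5.77, 6.24 and 6.85), Haao (5.79, 6.16 and 6.55) and Kynu (3.75, 4.14 and 4.69) took the same order. The dendritic cell marker mean (6.30, 7.12 and 7.38) and Irf8 (7.13, 8.70 and 9.43), a transcription factor gene, took it as well. That order was not particular to dendritic cell markers, as the plasma cell marker mean (7.88, 8.46 and 9.10) shared it too. Ido1 did not, at 9.56, 9.27 and 9.54. The relation was seen in 3 pools and was not tested.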
